A study of Mus musculus with 24 samples.

Results

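Fasn encodes fatty acid synthase, the cytosolic enzyme that builds palmitate from acetyl-CoA and malonyl-CoA. The RNA of epididymal fat was compared between the 6 mice with the highest and the 6 mice with the lowest Fasn values of the 12 mice in the series. The members of each class were chosen by the normalized Fasn value of the RNA library, with both prenatal exposures mixed, so the classes are a description of Fasn itself, and Fasn was left out of the genes tested between them. Fasn RNA stands in here for fat synthesis, whose rate was not measured.

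All 12 animals were 19-week-old males of the outbred CD-1 stock, each adult giving 1 RNA library and 1 library of methylated DNA from the same fat depot, which makes 24 libraries. For 6 of them, called BPA, the mother was dosed orally with bisphenol A, a plastics monomer with weak estrogenic activity, at 500 ug per kg per day on gestational days 9 to 18, and for the other 6, called vehicle, with the corn oil carrier over the same days. Offspring of both groups ate chow with 4% fat and carried no genetic modification named in the labels. Littermates are not identified, so p-values treat animals as independent.

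In adipocytes, citrate leaves the mitochondria and is split by ATP citrate lyase into acetyl-CoA, which acetyl-CoA carboxylase turns into malonyl-CoA for fatty acid synthase. NADPH from the pentose phosphate pathway and malic enzyme drives the reductions, and elongases and desaturases then turn palmitate into longer and monounsaturated chains. The transcription factors SREBP-1c (gene Srebf1), ChREBP (Mlxipl) and LXR (Nr1h3) are known activators of these genes, and insulin and dietary carbohydrate are known to raise the pathway's RNA in fat and liver.

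Fasn ranged 2.87-fold across the animals. From the lowest upward the low class held vehicle 5 at 7871, vehicle 2 at 8931, BPA 4 at 12762, vehicle 6 at 12848, BPA 6 at 13664 and BPA 1 at 14132. The high class continued with BPA 2 at 14569, BPA 5 at 15567, vehicle 3 at 17374, vehicle 1 at 18568, BPA 3 at 19944 and vehicle 4 at 22569. The 2 animals on either side of the division differed 1.03-fold, and the order is without a gap there. Class means were 18098 ± 2933 and 11701 ± 2628 (SD, n = 6 each), 1.55-fold apart. Each class held 3 BPA and 3 vehicle animals. Fasn by exposure was 15106 ± 2547 for the BPA animals and 14694 ± 5786 for the vehicle animals (SD, n = 6 each), a difference of 412.8 with a 95% interval of -5337 to 6163 (two-sided exact permutation test over 924 assignments, p = 0.887). The sign of that difference turned without BPA 3 (-554.7), without vehicle 2 (-739.6) or without vehicle 5 (-951.6).

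**Figure D1:**
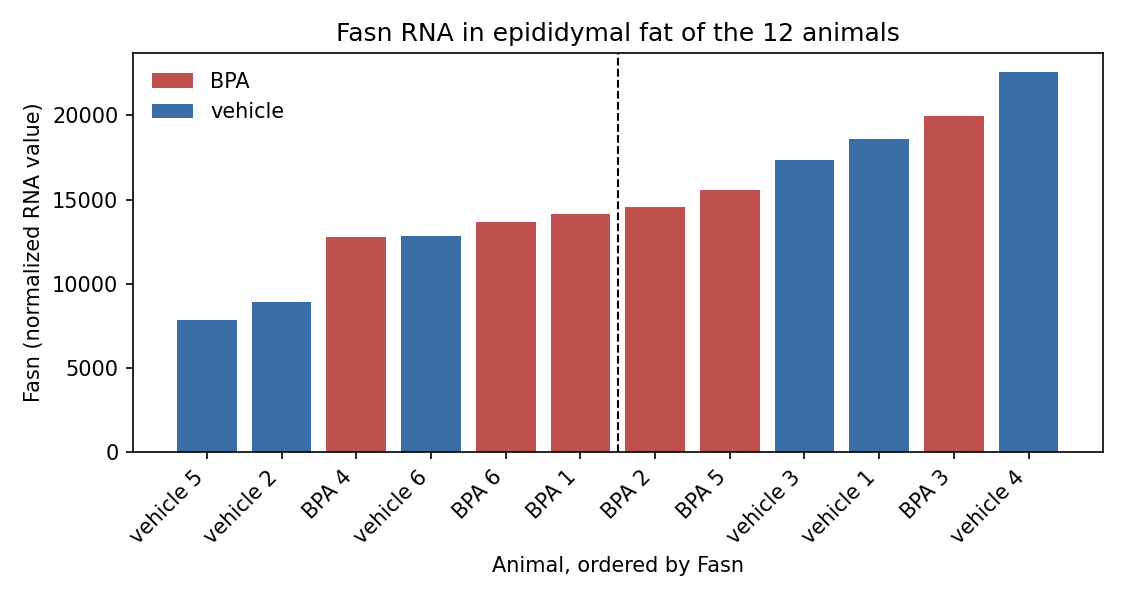
Normalized Fasn RNA value (vertical axis, from 0) in each of the 12 animals, ordered by that value, 1 bar an animal, coloured by prenatal exposure. The dashed line divides the classes between BPA 1 at 14132 and BPA 2 at 14569, and both exposures lie on both sides of it.

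Fasn set the classes. Acly and Elovl6, genes of acetyl-CoA supply and elongation, were among the genes of smallest p with a higher mean, and neither was called (limma). The RefSeq promoter sequences of these 3 genes are shown. Each runs 5′ to 3′ on the gene's strand from 250 bases before to 50 after the annotated start, on GRCm38.p6, with matches to the searched motifs in capitals. The searched motifs were TCACNCCAC (the core of a sterol regulatory element), CACGTG (an E-box, bound by ChREBP and USF among others), CCAAT and GGGCGG (a GC box, bound by Sp1), on both strands. Fasn lies on the minus strand, at chr11:120824498-120824797. Acly lies on the minus strand, at chr11:100527951-100528250. Elovl6 lies on the plus strand, at chr3:129532136-129532435.
Fasn: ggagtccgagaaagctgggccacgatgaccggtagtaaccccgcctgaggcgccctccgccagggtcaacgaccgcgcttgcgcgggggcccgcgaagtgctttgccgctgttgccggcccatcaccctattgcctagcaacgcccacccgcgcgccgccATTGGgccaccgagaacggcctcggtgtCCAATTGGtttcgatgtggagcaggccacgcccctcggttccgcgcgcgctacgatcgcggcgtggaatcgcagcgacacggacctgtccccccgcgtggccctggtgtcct
Acly: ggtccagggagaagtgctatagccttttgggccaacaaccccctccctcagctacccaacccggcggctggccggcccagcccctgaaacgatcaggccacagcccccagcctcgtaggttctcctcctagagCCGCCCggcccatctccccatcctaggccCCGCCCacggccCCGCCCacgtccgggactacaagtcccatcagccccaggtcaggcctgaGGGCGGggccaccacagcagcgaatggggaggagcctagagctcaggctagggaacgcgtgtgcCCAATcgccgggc
Elovl6: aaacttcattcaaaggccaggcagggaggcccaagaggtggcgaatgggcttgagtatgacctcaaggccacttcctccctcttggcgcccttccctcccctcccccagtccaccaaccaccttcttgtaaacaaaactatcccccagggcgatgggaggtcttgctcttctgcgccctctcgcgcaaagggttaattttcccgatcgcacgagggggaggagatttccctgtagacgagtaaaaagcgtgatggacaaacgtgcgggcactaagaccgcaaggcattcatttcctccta
The Fasn window held 3 CCAAT matches, of which a pair on opposite strands overlap, and none of the other motifs. The Acly window held 1 CCAAT and 4 GGGCGG matches, and the Elovl6 window held none of the 4 motifs, which says nothing about factors bound there. Over all 32851 RefSeq promoters of this length, 37.4% held CCAAT, 35.7% GGGCGG, 7.15% CACGTG and 1.24% TCACNCCAC. Of the 60 genes of the fatty acid synthesis lists described next, 50 had a promoter entry. CCAAT was found in at least 1 entry of 25 of these genes, GGGCGG in 37, CACGTG in 8 and TCACNCCAC in 1. These are counts of genes, some with several entries, and cannot be set against the shares above, which are per entry.

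Some libraries stood apart before any comparison. Genes of duct epithelium, which lines tubules and is not part of fat, had their 6 highest means in the 3 high-Fasn BPA animals and the 3 low-Fasn vehicle animals, and epididymal epithelium genes summed to 6006 in vehicle 6 and 837.0 in vehicle 4 against at most 53.6 in the other 10. Macrophage genes summed to 53654 in vehicle 3 and smooth muscle genes to 43851 in BPA 3, against at most 21632 and 17510 in any other library. White adipocyte genes were present throughout, apart from 1 marker listed at 0 in at least 1 library. Adipoq (adiponectin) lay between 22030 and 41685, so fat was present in all 12. In whole tissue, fewer cells of a type and less RNA per cell cannot be told apart, and this holds for every list below.

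Expression in the high class was compared with that in the low class for the 12527 genes whose value reached 10 or more in 6 or more libraries. No gene passed an adjusted p of 0.05 (limma, Benjamini-Hochberg; 0% of genes). The smallest adjusted p was 0.136. At an unadjusted p under 0.05 there were 345 genes (2.75%), of which 141 were higher in the high class (1.13%) and 204 lower (1.63%). The share of 2.75% is below the share of 0.05 that this threshold alone would pass if no gene differed. The differences below are therefore values with intervals and not calls. They are on the log2(value + 1) scale, high minus low. The median over all genes was 0.005, and the median half-width of the 95% interval was 0.33. For a typical gene a difference below that half-width could not be told from the spread between these animals.

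Among the genes with the smallest p and a higher mean in the high class, 3 belong to fatty acid synthesis and modification. Elovl6, the elongase that takes palmitate to stearate, lay between 724.9 and 1098 (median 811.1) in the high class and between 380.9 and 671.6 (median 483.0) in the low class. The classes did not overlap, and BPA 3 was the highest animal. The difference was 0.71 (95% interval 0.41 to 1.02; limma, unadjusted p = 2.21e-04, adjusted p = 0.999). Scd2, a stearoyl-CoA desaturase that makes monounsaturated chains, lay between 5780 and 10886 (median 7193) against 2972 to 5513 (median 4176). Its classes did not overlap either, with BPA 5 highest and vehicle 5 lowest, and the difference was 0.80 (0.41 to 1.19; limma adjusted p = 0.999). Acly, ATP citrate lyase, lay between 1862 and 4053 (median 2984) against 1380 to 2126 (median 1525). BPA 5, at 1862, lay below BPA 6 and vehicle 6 of the low class, and the difference was 0.79 (0.43 to 1.15; limma adjusted p = 0.999). Non-overlap in the direction of a higher level was seen in 8 of all genes tested (0.0639%) and in the opposite direction in 9 (0.0718%).

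These 3 genes had differences of like size within each exposure. They were picked by smallest p over these same 12 animals, so like values in the exposures were largely built in. For Elovl6 and Scd2, without overlap, the sign within each exposure was fixed. Elovl6 differed by 0.74 among the BPA animals and 0.69 among the vehicle animals (3 against 3 in each). Acly differed by 0.76 and 0.82, and Scd2 by 0.85 and 0.75. The difference between the exposures' effects was 0.05 for Elovl6 and -0.06 for Acly, with limma adjusted p = 0.953 for both. Against log2 Fasn as a continuous measure over all 12 animals, Elovl6 had a slope of 0.86, Acly of 0.92 and Scd2 of 0.95 log2 units per log2 unit of Fasn (limma adjusted p = 0.849 for Elovl6 and 0.999 for the others). Fasn and these genes were scaled by the same library factors, and the slopes use the same Fasn values that set the classes.

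**Figure D2:**
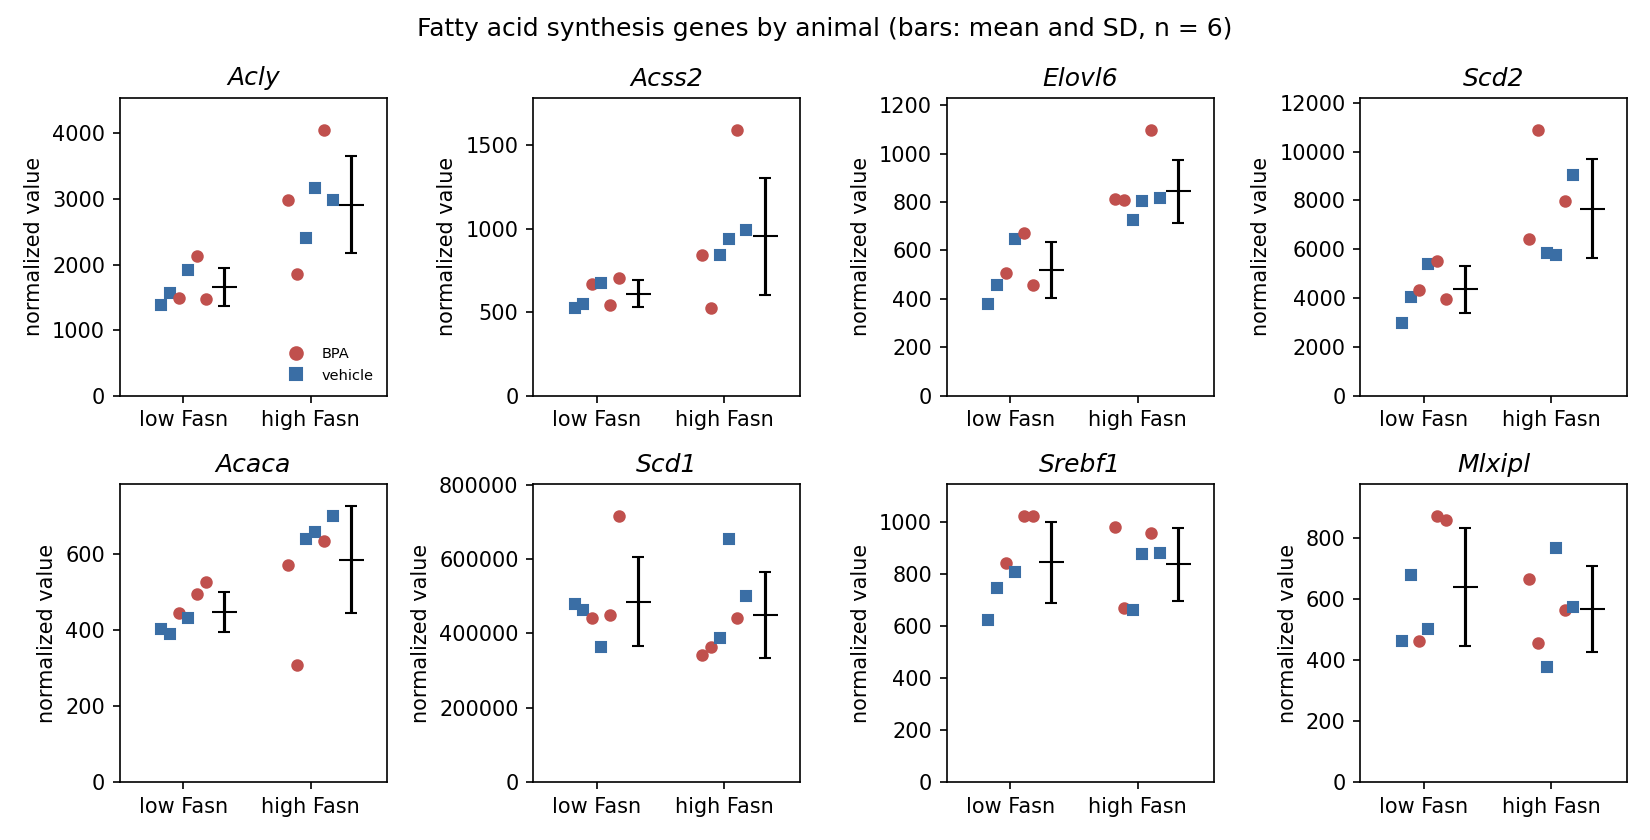
Normalized RNA value (vertical axes, each from 0 with its own scale) of 8 genes in the low-Fasn and high-Fasn classes, 1 point an animal, circles BPA and squares vehicle. Black bars are the mean and SD of 6 animals. Elovl6 and Scd2 do not overlap between the classes, Acly and Acaca overlap through BPA 5, and Scd1, Srebf1 and Mlxipl cover the same range in both.

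Acetyl-CoA supply was the first step described. Of 12 genes 11 were tested, and 9 had a higher and 2 a lower mean in the high class, with a median of 0.15. Over all genes 51.4% had a higher mean. The list median was 0.007 among the BPA and 0.24 among the vehicle animals. Besides Acly, Acss2, which makes acetyl-CoA from acetate in the cytosol, lay between 525.8 and 1592 (median 890.4) against 523.8 to 707.6 (median 609.8), a difference of 0.58 (0.15 to 1.01). BPA 3 alone exceeded 1000, and BPA 5 lay at the floor of the low class. Slc25a1, the mitochondrial citrate carrier, differed by 0.26 (-0.03 to 0.56). The mitochondrial steps had smaller values, with citrate synthase Cs at -0.03 (-0.27 to 0.20), the pyruvate carboxylase gene Pcx at -0.10 (-0.43 to 0.22) and the pyruvate dehydrogenase subunit Pdha1 at 0.10 (-0.10 to 0.30).

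NADPH supply covered 9 tested genes, 7 with a higher and 2 with a lower mean, at a median of 0.07. The median was -0.02 among the BPA and 0.17 among the vehicle animals. Tkt, transketolase of the non-oxidative pentose phosphate branch, had the smallest p of the list. It lay between 821.3 and 1335 (median 990.0) in the high class and between 718.0 and 890.0 (median 793.6) in the low class, a difference of 0.29 (0.04 to 0.53). Vehicle 4 was the highest animal, and BPA 5 and vehicle 3 lay within the range of the low class. Malic enzyme Me1 differed by 0.25 (-0.10 to 0.60) and Pgd, the second oxidative dehydrogenase, by 0.21 (-0.04 to 0.47). G6pdx, which opens the oxidative branch, differed by -0.06 (-0.28 to 0.15).

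Carboxylation, elongation and desaturation covered 19 tested genes of 21, with 12 higher and 7 lower and a median of 0.08, which was 0.02 among the BPA and 0.15 among the vehicle animals. Acaca, cytosolic acetyl-CoA carboxylase, lay between 308.7 and 699.7 (median 637.2) against 389.6 to 525.6 (median 437.9), a difference of 0.34 (-0.03 to 0.72). The high class lay above all of the low class except BPA 5, which was the lowest of the 12. The difference was -0.01 among the BPA animals and 0.70 among the vehicle animals. Acacb, the carboxylase of the mitochondrial outer membrane that restrains fat oxidation, differed by -0.003 (-0.48 to 0.48). Elovl5, which extends polyunsaturated chains, differed by 0.32 (0.05 to 0.58).

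The desaturases did not share a direction. Scd1, the main stearoyl-CoA desaturase of fat, differed by -0.12 (-0.62 to 0.38), between 343179 and 654053 (median 414533) in the high class and between 363860 and 716071 (median 456500) in the low class. The 2 highest animals, BPA 1 and vehicle 1, were in different classes. Fads1 and Fads2, the delta-5 and delta-6 desaturases, differed by 0.17 (-0.28 to 0.62) and 0.27 (-0.61 to 1.14). Fads2 differed by 1.34 among the BPA and -0.81 among the vehicle animals, and its 2 highest libraries, BPA 5 at 286.9 and vehicle 6 at 319.3, were also the 2 highest in duct epithelium genes. Elovl7 followed the same split, at 3.21 and -2.37. The interaction of class and exposure, described further on, was called for Elovl7 (limma adjusted p = 0.0122) and not for Fads2 (limma adjusted p = 0.0887). With the mean level of the duct epithelium genes as a covariate, Elovl7 differed by -0.13 between the classes in place of 0.42, and Fads2 by 0.04 in place of 0.27. Without the 3 libraries highest in those genes they differed by -0.20 and 0.25. What duct tissue adds to these values was not tested.

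Of 18 regulator genes 16 were tested, with 9 higher and 7 lower and a median of 0.05, which was 0.01 among the BPA and 0.04 among the vehicle animals. Srebf1 lay between 659.4 and 980.7 (median 879.3) in the high class and between 624.5 and 1022 (median 824.9) in the low class, a difference of -0.01 (-0.31 to 0.30). The classes covered nearly the same range, and BPA 1 and BPA 6 of the low class were the highest of the 12. Mlxipl differed by -0.16 (-0.60 to 0.29) and Nr1h3 by -0.13 (-0.43 to 0.18). Thrsp and Mid1ip1, a pair of related lipogenic cofactors, differed by 0.30 (-0.30 to 0.90) and 0.39 (-0.24 to 1.02). Mid1ip1 differed by 1.20 among the BPA and -0.41 among the vehicle animals (interaction, limma adjusted p = 0.0666), and by 0.23 with the duct epithelium mean as a covariate. RNA of these regulators says nothing about their processing or activity.

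Over the 4 lists together, 55 of 60 genes were tested. Their means were higher in 37 and lower in 18, with a median of 0.07, and 6 had an unadjusted p under 0.05 in the higher direction (limma; 1.13% of all genes did) and none in the lower. The 6 were Acly, Acss2, Tkt, Elovl6, Scd2 and Elovl5. Against continuous log2 Fasn, 40 of the 55 slopes were positive and 8 genes had an unadjusted p under 0.05 with a positive slope (1.25% of all genes did) and 0 with a negative one (0.958%), with no call (limma). Those 8 were Acly, Acss2, Tkt, Elovl6, Scd2, Acaca, Me1 and Slc25a1. In 18 of the 55 the mean was higher in both exposures and in 2 it was lower in both, against 17.3% and 19.8% of all genes. The lists were drawn up with results of these data known, and their genes share libraries, so the counts describe these 12 animals.

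**Figure D3:**
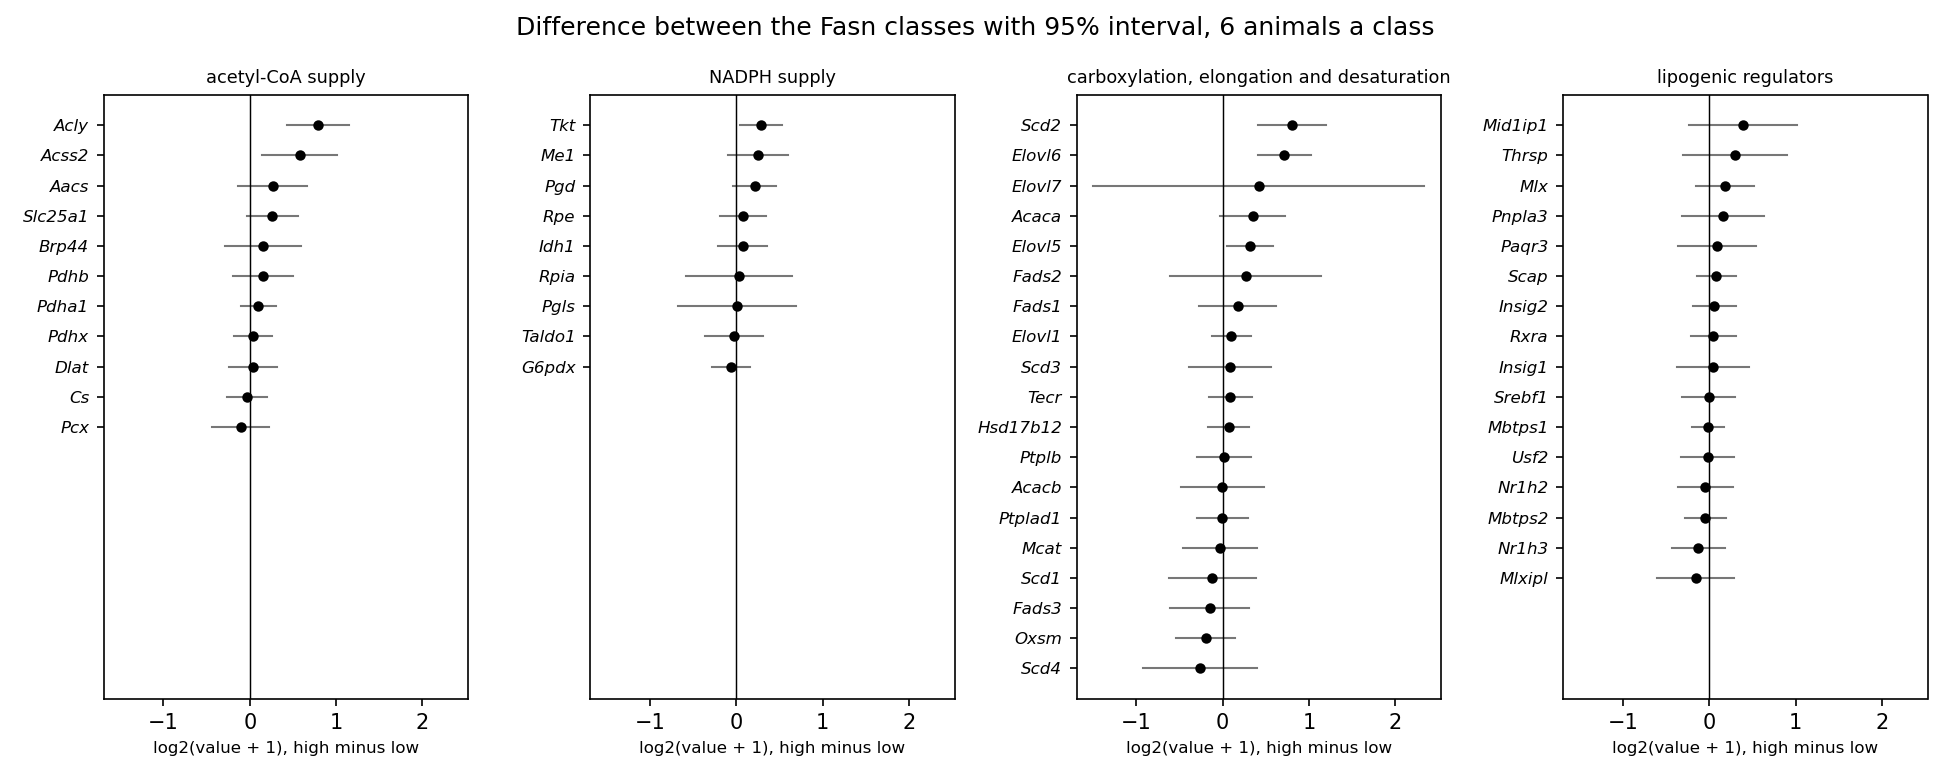
Difference in log2(value + 1), high minus low Fasn (horizontal axis), with its 95% interval for each tested gene of the 4 fatty acid synthesis lists, 6 animals a class. Acly, Acss2, Tkt, Scd2, Elovl6 and Elovl5 have intervals above zero before adjustment, and the regulators at the right, Srebf1 and Mlxipl among them, have intervals that span it.

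Clu and Hist2h3c2 completed the 5 of smallest p in the higher direction. Clu, the secreted chaperone clusterin, was 688.3 ± 113.2 against 445.5 ± 83.3 (SD, n = 6 each), a difference of 0.63 (0.34 to 0.93). Hist2h3c2, one of several near-identical histone H3 genes whose reads may be shared, was 19.7 ± 6.64 against 7.15 ± 3.03, a difference of 1.37 without overlap. Both have a limma adjusted p of 0.999.

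In the lower direction the smallest p belonged to A230069A22Rik, a transcript named only by its clone. Its values were 83.8 to 155.1 in the high class and 227.1 to 358.1 in the low class, without overlap, with means of 128.2 ± 29.2 and 274.9 ± 46.5 (SD, n = 6 each). The difference of -1.11 (-1.47 to -0.76) had the smallest adjusted p of all genes, 0.136 (limma). B3galt2, a beta-1,3-galactosyltransferase, lay between 6492 and 11675 against 11808 to 15201, also without overlap, a difference of -0.58 (-0.85 to -0.31). Ppargc1b, the coactivator PGC-1 beta of mitochondrial genes, was 90.1 ± 15.3 against 147.0 ± 27.6 (SD, n = 6 each), a difference of -0.69 (-1.02 to -0.37). Neil2, a DNA glycosylase, and Tmeff1, a membrane protein, differed by -1.09 and -0.57. Each of these 4 had a limma adjusted p of 0.999. The 10 leading genes kept their sign in all 27 alternatives, those within a single exposure included. None passed the adjusted threshold in any of them. The 10 were picked by smallest p in these same animals. Kept signs were therefore largely built in and add no support.

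The cholesterol pathway, which shares acetyl-CoA and the SREBP system with fatty acid synthesis, showed the most one-sided list of the lipid pathways. Of 19 tested genes 18 had a higher mean and 1 a lower, with a median of 0.20 and no call (limma). Ebp, a sterol isomerase, was 182.9 ± 31.9 against 140.7 ± 17.0 (SD, n = 6 each), a difference of 0.37. Mvd, which makes isopentenyl diphosphate, differed by 0.58 at low values, 44.2 ± 15.5 against 28.4 ± 8.49. Dhcr7, the sterol reductase of a last step to cholesterol, differed by 0.36. Within the exposures Ebp differed by 0.43 among the BPA and 0.31 among the vehicle animals. The list median stayed positive in all 27 alternatives, between 0.12 and 0.27, and 10 of the 19 genes were higher in both exposures.

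Genes that take up and release fatty acids leaned the other way over the 12 animals, again without a call (limma), though not within both exposures, as given below. Over all genes 48.6% had a lower mean. Triglyceride assembly lay near that share, with 8 higher and 11 lower of 19 and a median of -0.03. With continuous log2 Fasn its median was 0.025. Acsl1, the acyl-CoA synthetase that activates fatty acids for storage, lay between 17120 and 30458 (median 22601) against 22886 to 46121 (median 29765), a difference of -0.51. The classes overlapped, with vehicle 5 and BPA 1 of the low class far above the rest. Fatty acid uptake had 4 higher and 12 lower of 16, with a median of -0.18, led by the transporter Slc27a1 at -0.43 and Gpihbp1, which anchors lipoprotein lipase in capillaries, at -0.38. Lipolysis and lipid droplet genes had 6 higher and 14 lower of 20, with a median of -0.12. Pde3b, the phosphodiesterase through which insulin restrains lipolysis, was 9266 ± 1129 against 11557 ± 1783 (SD, n = 6 each), a difference of -0.31.

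Glucose uptake and insulin signalling had 10 higher and 14 lower of 24, with a median of -0.04. Irs3, an insulin receptor substrate of rodent adipocytes, was 161.6 ± 32.7 against 227.4 ± 33.7 (SD, n = 6 each), a difference of -0.50 that was -0.51 among the BPA and -0.49 among the vehicle animals. Pck1, whose product feeds glycerol 3-phosphate synthesis in fat, differed by -0.81, with vehicle 1 of the high class at 47050, above all other animals, and the next high-class animal at 21882. Glycolysis had 8 higher and 4 lower of 12, with a median of 0.06.

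The white adipocyte identity list leaned lower with 6 higher and 19 lower of 25, at a median of -0.13 (no call, limma). Acvr1c, a receptor of the TGF-beta family prominent in fat, was 7295 ± 659 against 9749 ± 1462 (SD, n = 6 each), a difference of -0.41. Lgals12, a lipid droplet galectin, differed by -0.41, but by -0.78 among the BPA and -0.04 among the vehicle animals. Adipoq differed by -0.19 and Lep, leptin, by 0.14. Fatty acid oxidation had 6 higher and 20 lower of 26, branched-chain amino acid breakdown 2 and 19 of 21, and oxidative phosphorylation 8 and 29 of 37, with medians of -0.07, -0.08 and -0.05. Against 48.6% of all genes with a lower mean these counts are one-sided, but the medians are small beside the half-width of a single gene's interval.

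The 8 lists of lipid storage, insulin signalling, adipocyte identity and energy metabolism with a negative median had opposite signs in the 2 exposures. Among the BPA animals the medians were -0.47 for white adipocyte identity, -0.46 for lipolysis, -0.40 for uptake, -0.25 for triglyceride assembly, -0.25 for branched-chain amino acid breakdown, -0.22 for glucose uptake and insulin signalling, -0.15 for oxidative phosphorylation and -0.14 for fatty acid oxidation. Among the vehicle animals they were, in the same order, 0.16, 0.17, 0.08, 0.05, 0.08, 0.03, 0.03 and 0.04. The difference in effect between the exposures was tested only gene by gene. It was called for 2 genes of fatty acid oxidation (limma; 2.32% of all genes were called), Ppargc1a and the acyl-CoA thioesterase Acot1, and for none of the other 7 lists. Acot1 differed by 3.97 among the BPA and -4.20 among the vehicle animals (limma adjusted p = 0.0155).

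**Figure D4:**
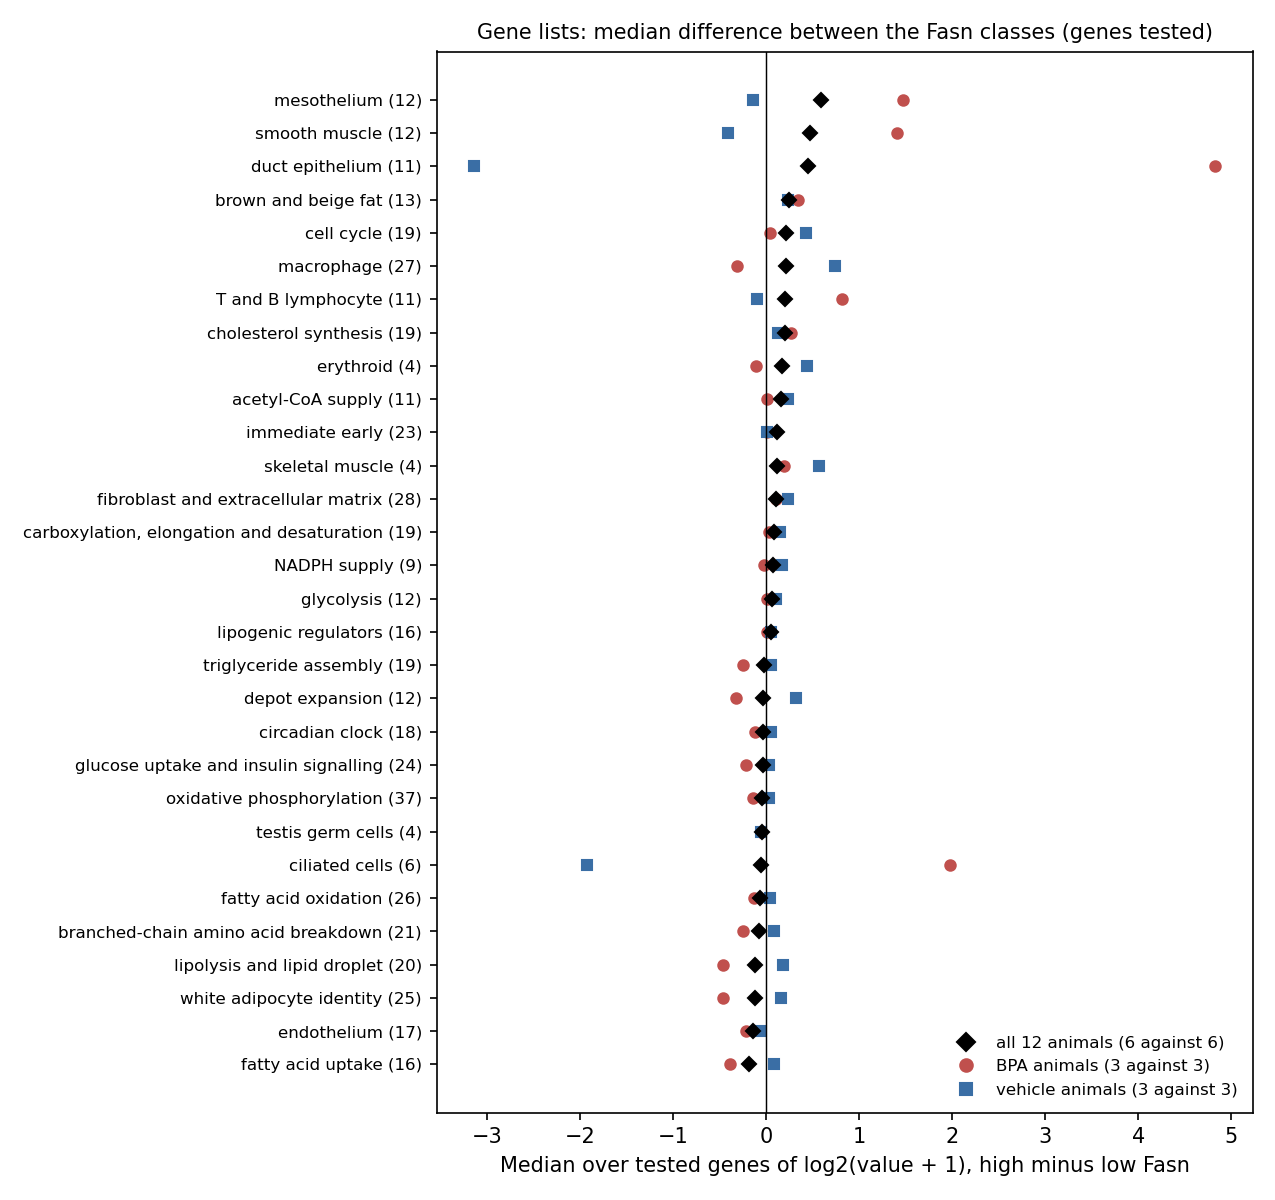
Median over the tested genes of each list (number in brackets) of the log2(value + 1) difference, high minus low Fasn (horizontal axis), for all animals (diamonds) and within the BPA (circles) and vehicle (squares) animals. Cholesterol synthesis is positive in all 3, acetyl-CoA supply is at 0.007 in BPA and 0.24 in vehicle animals, and duct epithelium is at 4.83 in BPA and -3.15 in vehicle animals.

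Markers of other cell types differed between the classes too, and their part in the values above was not tested. Mesothelium genes, which mark the lining of the depot, had the largest list median, 0.59, with 10 higher and 2 lower of 12. Their sums were 1380 to 5520 in the high and 635.9 to 2882 in the low class, with vehicle 1 and BPA 3 highest and 1 marker listed at 0 in at least 1 library. The mesothelium median was 1.47 among the BPA and -0.15 among the vehicle animals, and 1.13 with all 12 genes higher without the 3 libraries highest in duct genes. Macrophage genes had a higher mean in 25 of 27, with a median of 0.21 and no marker at 0 in any library, and summed to 13222 to 53654 in the high and 15392 to 20099 in the low class. Without vehicle 3 the macrophage median was -0.07 and the cell cycle median, 0.21 with all animals, was -0.02. Smooth muscle genes had 11 higher and 1 lower of 12, with sums of 12607 to 43851 against 12825 to 17071, BPA 3 setting the top. Within the exposures the smooth muscle median was 1.40 among the BPA and -0.42 among the vehicle animals. The macrophage median was -0.32 and 0.74 in the same order. Fibroblast and matrix genes had 25 higher and 3 lower of 28 at a median of 0.11, and endothelial genes 2 higher and 15 lower of 17 at -0.14. Brown and beige fat genes had 11 higher and 2 lower of 13 at a median of 0.25, which was -0.09 with the replicate block. At an unadjusted p under 0.05 (limma) 2 were higher and 1 lower, and the lowest differed by -0.43. Their sums were 1925 to 6571 (median 2644) in the high and 2749 to 3637 (median 3210) in the low class, BPA 3 setting the top. Otop1, the brown and beige gene of smallest p, differed by 1.07, and Dio2, which activates thyroid hormone, by 0.81, both at low values. T and B lymphocyte sums were 754.5 to 2577 against 797.2 to 1085, with BPA 2 highest, and the list median was 0.81 among the BPA and -0.10 among the vehicle animals. The fibroblast, endothelial and brown and beige medians each had the same sign in both exposures.

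Duct epithelium genes separated the classes in opposite directions in the 2 exposures. All 11 tested genes had a higher mean in the high class over the 12 animals, at a median of 0.45 and with no call (limma). The mean log2 level of the list was 6.59, 5.66 and 7.52 in high-Fasn BPA animals 2, 3 and 5 against 3.39, 2.93 and 3.41 in low-Fasn BPA animals 1, 4 and 6. It was 4.05, 3.68 and 3.92 in high-Fasn vehicle animals 1, 3 and 4 against 5.53, 5.63 and 7.37 in low-Fasn vehicle animals 2, 5 and 6. Neither pair of groups overlapped. Cdh1 (E-cadherin), a defining marker, was at 2.89 in BPA 6 and 575.3 in BPA 5, and 6 of the 16 markers were listed at 0 in at least 1 library. Aqp1, a water channel that endothelium also expresses, was 1484 ± 206 in the high and 1373 ± 172 in the low class (SD, n = 6 each). As list sums, the class ranges were 3765 to 23820 and 3514 to 16389.

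**Figure D5:**
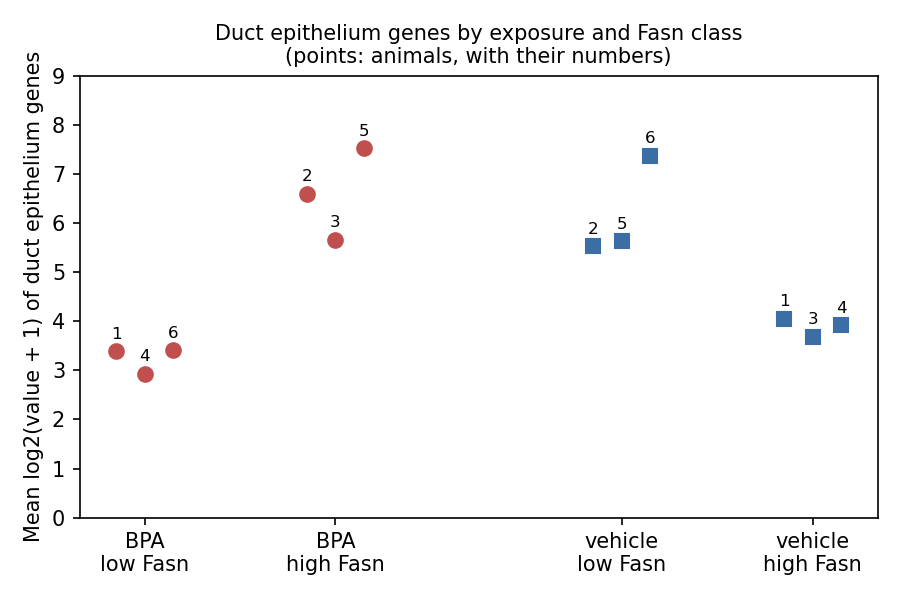
Mean log2(value + 1) of the duct epithelium genes (vertical axis, from 0) by exposure and Fasn class, 1 point an animal with its number. The high class lies at 5.66 to 7.52 above 2.93 to 3.41 in BPA, and at 3.68 to 4.05 below 5.53 to 7.37 in vehicle animals.

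Whether the high minus low difference itself differed between the exposures was tested with an interaction term. It was called for 291 genes (limma; 2.32% of 12527), with 279 where the BPA difference lay above the vehicle difference and 12 below, and the smallest adjusted p was 8.48e-04. Of the 11 duct genes 8 were called, and of 6 ciliated cell genes 3. For Cdh1 the difference was 6.39 among BPA and -3.69 among vehicle animals, and the gap between these was 10.09 ± 0.95 (SE; limma adjusted p = 8.48e-04). Smooth muscle genes Cnn1, Lmod1 and Actg2, the elongase Elovl7 and the coactivator Ppargc1a were called as well, and the macrophage protease Mmp12 in the opposite direction. No gene of acetyl-CoA supply, NADPH supply, cholesterol synthesis or the lipogenic regulators was called. At 2.32% of all genes called, that absence in lists of 9 to 19 tested genes says little about them. With the duct epithelium mean as a covariate, or with Fasn as a continuous measure, no gene was called (limma), and with the replicate number as a block 8 were. The duct mean was highest in the high-Fasn BPA and low-Fasn vehicle animals. As a covariate it cannot be cleanly told apart from the interaction, and the cause was not tested.

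Within the BPA animals alone, 161 genes passed the adjusted threshold (limma; 1.29%), of which 159 were higher with high Fasn and 2 lower, and within the vehicle animals none did, with 951 at an unadjusted p under 0.05. The 161 included 6 of the 11 duct genes, Cdh1, Epcam, Krt18, Spint1, Spint2 and Ehf. None of the 55 tested fatty acid synthesis genes was among them, which at 1.29% of all genes says little about these genes. With the duct mean as a covariate over all 12 animals Elovl6 differed by 0.70 and Acly by 0.80. Without the 3 libraries highest in duct genes (BPA 2, BPA 5 and vehicle 6) they differed by 0.81 and 0.97, and no gene was called in either fit (limma; 511 and 460 genes at an unadjusted p under 0.05).

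Methylated DNA of the same animals was the readout that the ranking did not use. The deposited score, between 0 and 1 for each of 1000 windows of 100 bp on mm9, is of a kind the sources used here do not define. BPA 1 stood apart with a mean score of 0.697 and BPA 3 with 0.332, against 0.415 to 0.489 in the other 10 animals. Mean scores were 0.430 ± 0.055 in the high and 0.502 ± 0.096 in the low class (SD, n = 6 each; two-sided exact permutation test, p = 0.0974). Without BPA 1 and BPA 3 they were 0.450 and 0.463 (n = 5 each; exact permutation p = 0.357).

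A single window (1 of 1000) passed the adjusted threshold (limma; 0.1% of windows), and 78 had an unadjusted p under 0.05 (7.8%). It lies at chrX:92937001-92937100 on mm9 and was singled out after its values were seen. It was listed at 0 in all 6 high-Fasn animals. The low-Fasn animals scored 0.52 in vehicle 5, 0.51 in vehicle 2, 0.42 in BPA 4, 0.52 in vehicle 6, 0.42 in BPA 6 and 0.62 in BPA 1 (limma adjusted p = 1.88e-05). A listed 0 may be a window without a usable estimate, and 11 windows were at 0 in all 6 high-Fasn animals and 4 in all 6 low-Fasn animals. Over all windows 856 had a lower and 144 a higher mean in the high class, and with each library's own mean subtracted 424 were lower and 576 higher.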

How the data were processed

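RNA depleted of ribosomal RNA and DNA enriched with the methyl-binding domain of MBD2 were sequenced on SOLiD, per the labels' protocols. The deposited RNA values are the authors' normalized signal per gene on a common library size, made with edgeR on mm9 per the submitters' processing notes. They are fractional and sum to 9628801 to 11582945 per library, so depth is unknown and no counting interval was set. The aligner and annotation are not stated in the sources used here. The deposited MBD values are the authors' score per window, with coverage unknown. The 48 per-sample columns of smaller tables were not used.

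Of 20624 genes, 12527 reached a value of 10 or more in 6 or more libraries. They were tested on log2(value + 1) with limma-trend (limma 3.58.1, R 4.3.3), a scale that understates changes of low genes, two-sided, Benjamini-Hochberg over all genes at 0.05. MBD windows were tested with limma on the score itself. The fit was run on simulated data with independent noise, the same spread for every gene and shifts larger than most differences given here. That run therefore says little about these differences. Classes came from the Fasn rank, exposures from the labels. Replicate numbers did not pair the animals.

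The members, gene lists and tests were chosen with earlier results of these data known. Lists held 592 entries, 586 found in the table (3 by an older symbol) and 495 tested. Named genes were the 5 of smallest p per direction, any member of the fatty acid synthesis lists and up to 6 of smallest p of each other list, with the highest members of cell type lists. Outside this rule, list genes with a called interaction, such as Acot1, and genes without overlap between the classes were also named. The 537 rows with date or duplicate names were tested and not named. Alternatives covered pseudocount, filter, scaling, exposure, replicate block, continuous Fasn, duct epithelium and each library left out.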

Additional observations from a re-analysis of the deposited data

Results flagged for a closer look

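In 190 groups of 6 animals, 31 had a single animal apart from the other 5 by Dixon's gap-to-range ratio at its 95% critical value, and chance gives about 1 group in 20. Several animals recur, and the values are given without an explanation.

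BPA 5 stood high in the high class for Elovl7 at 509.4 and Fads2 at 286.9, for the summed duct epithelium genes at 23820 and the ciliated cell genes at 3653, and low for Acaca at 308.7. Vehicle 6 stood high in the low class for the same sets, with Elovl7 at 306.7, Fads2 at 319.3, duct epithelium at 16389, ciliated cells at 3166 and epididymal epithelium at 6006. It stood low for Cs at 4115, for the NADPH supply sum at 11472 and for the endothelium sum at 10163.

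Vehicle 4, the animal with the highest Fasn, stood high for Pdhx at 922.3, Tkt at 1335, Rpe at 1426 and Nr1h3 at 475.0. It also stood high for the oxidative phosphorylation sum at 97550 and for the epididymal epithelium sum at 837.0. Without vehicle 4 the median of NADPH supply was -0.02 in place of 0.07, and that of the lipogenic regulators -0.002 in place of 0.05.

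BPA 1 stood high in the low class for Aacs, a cytosolic acetoacetyl-CoA synthetase, at 919.9, for Pcx at 1927 and for Scd1 at 716071. It did so as well for the carboxylation, elongation and desaturation sum, of which Scd1 is the largest member, at 736495, and for the mean MBD score at 0.697. BPA 3 stood high in the high class for Elovl6 at 1098 and for the smooth muscle sum at 43851. Vehicle 3 stood high for Elovl1 at 478.1, the cell cycle sum at 4598 and the macrophage sum at 53654. BPA 2 stood high for the T and B lymphocyte sum at 2577, and BPA 6 high in the low class for Scd4 at 20.4.

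The high minus low difference differed between the exposures for 291 genes, by the interaction test in limma.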

How the results depend on the processing

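No gene was called between the Fasn classes (limma) in 26 of the 27 alternatives, with 246 to 951 genes at an unadjusted p under 0.05; within the BPA animals 161 were called. With the replicate block 0 genes were called (430 at an unadjusted p under 0.05). Animals with the same number correlated between -0.57 and 0.40, so they share only a number. The 10 leading genes kept their sign throughout, whereas 110 of 197 other named genes and 26 of 30 list medians changed it somewhere, most often within one exposure. Because the 10 were picked by smallest p in these same animals, that contrast is largely built in. The Fasn difference between exposures lay between -951.6 and 1988 with 1 animal left out, being -554.7 without BPA 3, -739.6 without vehicle 2 and -951.6 without vehicle 5. The 291 genes of the interaction became 462 without the filter, 8 with the replicate block, 0 with continuous Fasn, 75 without the 2 animals nearest the division, 87 without the 3 libraries highest in duct genes, 0 with the duct mean as a covariate, and 138 (without BPA 1) to 570 (without BPA 3) with 1 animal left out; these were chosen after seeing the data, and the cause was not tested. The 1 MBD window became 0 with continuous Fasn, 2 without BPA 1 and BPA 3, 2 with library means subtracted and 1 to 3 with 1 animal left out (3 without vehicle 2, 2 without BPA 1 or vehicle 6), and stayed at 1 with the replicate block. The 6 animals a class, unknown depth and a median interval half-width of 0.33 limit what could be called.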

Other observations

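The other 12 of the 17 genes without overlap between the classes were looked at after their values were seen, and none was called (limma adjusted p = 0.999 for each). As stated above, non-overlap was seen in 8 of all genes tested in the higher direction (0.0639%) and in 9 in the lower (0.0718%). The share that a random split would give was not computed, so non-overlap is not read as support. Saa3, an acute-phase serum amyloid of inflamed fat, had the largest difference of them, 2.70. It lay between 36.5 and 1816 in the high class and between 12.2 and 34.6 in the low class, with vehicle 3 at 1816, BPA 2 at 446.1 and vehicle 1 at 245.8. Vehicle 3 was also the animal highest in macrophage genes, and BPA 2 the animal highest in T and B lymphocyte genes. Tfpi2, a protease inhibitor of the extracellular matrix, was 20.2 ± 2.46 against 10.7 ± 3.13 (SD, n = 6 each), and Ncaph2, a condensin subunit, 75.5 ± 6.09 against 57.6 ± 8.28.

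Lower without overlap were Shmt1, the cytosolic serine hydroxymethyltransferase of one-carbon metabolism, at 30.5 ± 4.82 against 44.4 ± 6.92 (SD, n = 6 each), and Rbm38, an RNA-binding protein, at 15.9 ± 3.48 against 27.1 ± 4.28. Jph1, a junctophilin that ties the plasma membrane to the endoplasmic reticulum, was 79.1 ± 6.09 against 108.7 ± 17.2, and Sin3a, a scaffold of a histone deacetylase complex, 1186 ± 77.2 against 1361 ± 100.3. Sec16b, which organises exit sites of the endoplasmic reticulum, was 231.1 ± 15.5 against 293.6 ± 32.6.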
